A study of Rattus norvegicus with 12 samples.

Results

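Type A intercalated cells are the acid-secreting cells of the connecting tubule and collecting duct. They were taken here as all nuclei that the authors' low-level clustering placed in the cluster named IC-A, without the separate cluster IC-A/CD-Trans, which gave 5714 of 217132 kidney nuclei, or 2.63%. The nuclei came from 12 male ZSF1 rats, 3 in each of 4 groups, and all rats had the genotype label ZSF1-LeprfaLeprcp/Crl. It names leptin receptor alleles but does not say which of them a lean rat carried. In the paper the obese rats were diabetic and had kidney disease. Lean rats received no treatment. Obese rats received, from 13 to 14 weeks of age and for 12 weeks, the vehicle alone (called untreated obese here), the soluble guanylate cyclase activator runcaciguat (BAY 1101042, called sGCact) at 3 mg/kg 2 times a day, or the soluble guanylate cyclase stimulator BAY 1165747 (called sGCstim) at 3 mg/kg 1 time a day, so they were 25 to 26 weeks old at the end. Although the label is the same, the paper treats lean against obese as a difference of genotype. Lean and untreated obese rats thus differ in genotype and vehicle as well as in phenotype, and these cannot be told apart. The 2 drugs were given at the same dose but not equally often.

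Intercalated cells sit singly among the principal cells of the connecting tubule and collecting duct. Type A cells pump protons into the urine with an apical proton ATPase and return bicarbonate to the blood through the anion exchanger AE1, encoded by Slc4a1. Type B cells do the reverse, with the chloride and bicarbonate exchanger pendrin, encoded by Slc26a4, on the apical side. Principal cells, which surround them, take up sodium and water. Soluble guanylate cyclase makes the messenger cGMP when nitric oxide binds it. Values per gene were not analysed here, so the name IC-A could not be checked against Slc4a1 or any other marker, and all results concern the number of these nuclei and their measures per nucleus. The questions were whether these differed between obese and lean rats, and between treated and untreated obese rats.

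In the deposited UMAP, 88.2% of IC-A nuclei had only IC-A nuclei among their 30 nearest neighbours. The paper drew clusters and UMAP from the same principal components, so this is no independent check of the cluster. It was not set against the same share in other clusters. The remaining placement was less clean for 106 nuclei, 1.86% of the cluster, of which fewer than 50% of the neighbours were IC-A. Their most frequent neighbours were PST for 26, PCT for 25 and IC-A/CD-Trans for 21, the first 2 being segments of the proximal tubule. These nuclei made up between 0.610% and 3.27% of the IC-A nuclei of a rat. They had a median of 1306 UMIs (unique molecular identifiers, each standing for 1 captured transcript molecule), against 1655 in the others. The authors' high-level annotation placed all IC-A nuclei but 1 in the type IC. That type held 11500 intercalated nuclei, of which 49.7% were IC-A, 47.2% IC-B and 3.16% IC-A/CD-Trans.

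Every rat contributed IC-A nuclei. The lean rats RK1_4, RK3_4 and RK5_4 gave 511, 381 and 717. The untreated obese rats RK7_4, RK9_4 and RK16_4 gave 167, 164 and 559. Under sGCact, RK43_4, RK45_4 and RK46_4 gave 789, 551 and 608, and under sGCstim, RK57_4, RK58_4 and RK61_4 gave 448, 571 and 248. No rat held more than 13.8% of the cluster, so that no single animal dominated it.

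Some libraries stood apart as a whole. All nuclei of a rat numbered from 10488 to 43484, with the highest number in RK9_4, and held from 11898496 to 49272672 UMIs. The proximal tubule made up 92.1% of the nuclei of RK9_4, 75.8% of those of RK7_4 and 70.6% of those of RK61_4, against 32.6% to 69.9% in the other 9 rats. The median mitochondrial percentage of all nuclei was 3.74 in RK9_4, 3.34 in RK61_4 and 2.13 in RK7_4, and at most 1.01 in the others. Cell barcodes were not shared beyond a small number: 5.15% of IC-A nuclei had a barcode that also occurred in another rat, against 5.42% of all nuclei, and any pair of rats shared at most 1 barcode that was IC-A in both.

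IC-A nuclei as a share of all nuclei ranged more widely within each obese group, treated or untreated, than the group means did. The lean rats RK1_4, RK3_4 and RK5_4 held 3.06%, 2.51% and 4.24% IC-A nuclei. The untreated obese rats RK7_4, RK9_4 and RK16_4 held 1.58%, 0.377% and 4.26%, so that the group contained both the lowest value of all 12 rats and one above every lean rat. The 95% Wilson interval of the lowest value was 0.324% to 0.439% and covers counting error only. Under sGCact the shares were 3.72%, 2.55% and 5.80% in RK43_4, RK45_4 and RK46_4. Under sGCstim they were 3.63%, 4.66% and 1.06% in RK57_4, RK58_4 and RK61_4, where the low value belonged to the rat with the proximal tubule share of 70.6%.

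The means were 3.27% ± 0.882 (SD, n = 3) in lean, 2.07% ± 1.99 (SD, n = 3) in untreated obese, 4.02% ± 1.64 (SD, n = 3) in sGCact and 3.12% ± 1.85 (SD, n = 3) in sGCstim rats. The log odds of the share (natural logarithm, 0.5 nuclei added to the cluster and 1 to the total) were fitted for all 25 clusters by limma over the 12 rats, with p adjusted by the Benjamini-Hochberg method. IC-A changed by -0.86 (SE 0.624, adjusted p = 0.389) in untreated obese against lean rats, with a 95% interval of -2.30 to 0.58. It changed by 1.04 (SE 0.624, adjusted p = 0.496) in sGCact and by 0.66 (SE 0.624, adjusted p = 0.677) in sGCstim against untreated obese rats. The difference of sGCact from sGCstim was 0.38 (SE 0.624, adjusted p = 0.964). None of these passed the threshold of 0.05. Of the 25 clusters, 12.0% passed it in untreated obese against lean rats and 0% in each of the other 3 contrasts, where limma gave 0 clusters also at an unadjusted p under 0.05 and edgeR called 0. The medians over all clusters were -0.66, 0.62, 0.50 and 0.10 in the order of these contrasts, so IC-A lay on the same side as the clusters in general. All 3 contrasts with untreated obese rats depended on single rats. Without RK9_4 the change in untreated obese against lean rats was -0.21, that of sGCact against untreated obese rats 0.39 and that of sGCstim 0.011. Without RK16_4 these changes were -1.44, 1.62 and 1.24, and still short of the threshold (limma, adjusted p = 0.0651, adjusted p = 0.052 and adjusted p = 0.105). Without RK61_4 the change under sGCstim was 1.12.

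**Figure D1:**
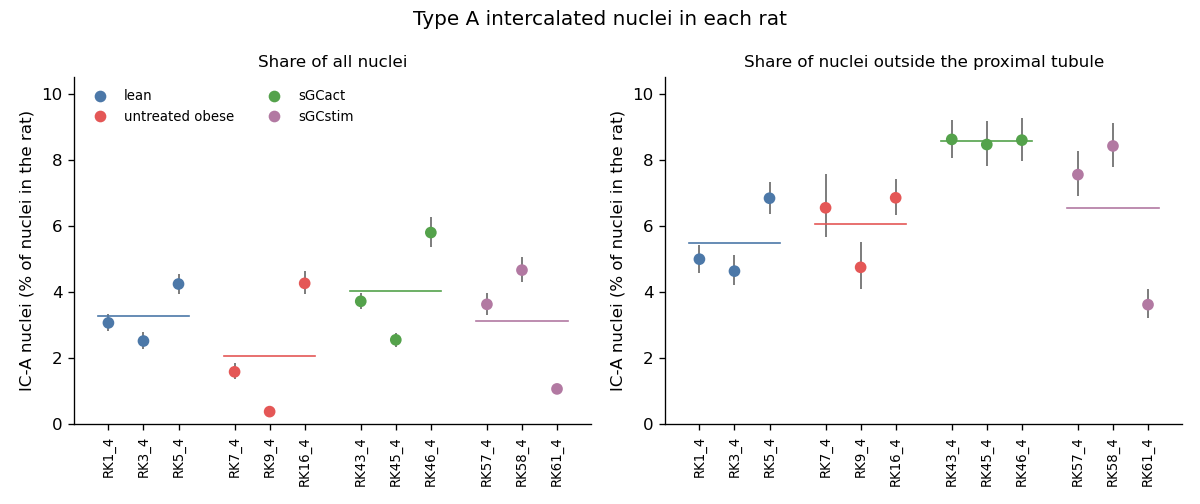
IC-A nuclei in each of the 12 rats, as a percentage of all nuclei of the rat (left) and of its nuclei outside the proximal tubule (right). Points are rats, vertical bars the 95% Wilson intervals for counting error, and horizontal lines the group means. In the right panel the 3 sGCact rats sit between 8.46% and 8.62%, above all untreated obese and all lean rats.

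With the proximal tubule left out of the total, the shares drew together. IC-A nuclei made up 4.99%, 4.63% and 6.84% of these nuclei in the lean rats RK1_4, RK3_4 and RK5_4, and 6.55%, 4.75% and 6.85% in the untreated obese rats RK7_4, RK9_4 and RK16_4. The groups overlapped, and RK9_4, which was far below all other rats on the total of all nuclei, was here within the range of the lean rats. The sGCact rats RK43_4, RK45_4 and RK46_4 held 8.62%, 8.46% and 8.59%, each above every untreated obese rat. They also lay above every lean rat, which was not tested. The sGCstim rats RK57_4 and RK58_4 held 7.55% and 8.42%, and RK61_4 held 3.62%, the lowest value of all. The coefficient of variation (CV) over the 12 rats was 50.7% for the share of all nuclei and 26.7% for the share outside the proximal tubule. A share of nuclei does not tell more IC-A nuclei from fewer nuclei of other kinds.

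The mean share outside the proximal tubule reached 5.49% ± 1.18 (SD, n = 3) in lean, 6.05% ± 1.14 (SD, n = 3) in untreated obese, 8.56% ± 0.0836 (SD, n = 3) in sGCact and 6.53% ± 2.56 (SD, n = 3) in sGCstim rats. In the limma fit over the 17 clusters outside the proximal tubule, untreated obese rats differed from lean rats by 0.11 in log odds (SE 0.264, adjusted p = 0.843), with a 95% interval of -0.50 to 0.72. For sGCact against untreated obese rats the difference was 0.39 (SE 0.264, adjusted p = 0.584), with an interval of -0.22 to 1.00. The values did not overlap between these 2 groups (p = 0.1 by exact two-sided permutation, which is the lowest that 3 rats against 3 can give). As a background, 23.5% of the 17 clusters did not overlap in this contrast, the others being ATL, CNT/PC and DCT/CNT. The log odds of CNT/PC changed by 0.52 and those of DCT/CNT by 0.56, both more than IC-A, and those of ATL by -1.03. The sGCact and sGCstim rats did not overlap either, with a difference of 0.36 (SE 0.264, adjusted p = 0.772), and neither did 17.6% of the clusters. This difference was 0.08 without RK61_4. The sGCstim rats differed from untreated obese rats by 0.03 (SE 0.264, adjusted p = 0.968), and by 0.31 without RK61_4 (adjusted p = 0.278, limma). No cluster, that is 0%, passed the limma threshold on this scale in any of the 4 contrasts. At an unadjusted p under 0.05 limma gave 2 clusters in untreated obese against lean rats, neither of them IC-A, and 0 in the others, while edgeR called 1 with all nuclei outside the proximal tubule as library size and 2 with TMM factors in the first contrast, and 0 in the others.

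**Figure D2:**
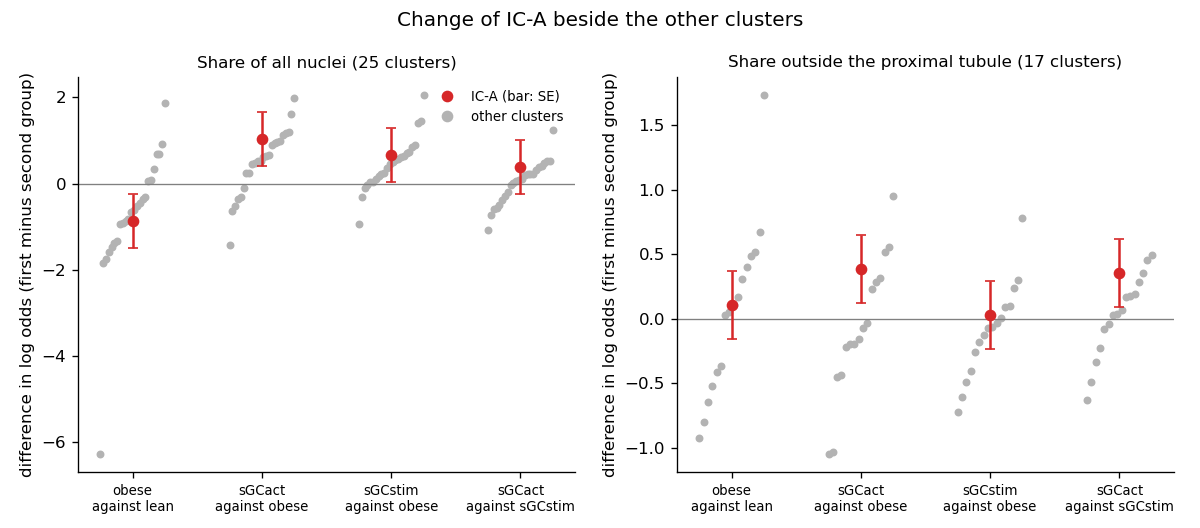
Difference in log odds of the share of nuclei between groups, first minus second named group, for IC-A (red, with its SE) and each other cluster (grey, ordered by value within a contrast). The left panel has 25 clusters on the total of all nuclei and the right panel 17 clusters outside the proximal tubule. IC-A lies within the cloud of the other clusters in all 4 contrasts.

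The number of IC-A nuclei followed that of CNT/PC, the cluster of connecting tubule and principal cells. Per CNT/PC nucleus there were 0.637, 0.562 and 0.727 IC-A nuclei in the lean rats RK1_4, RK3_4 and RK5_4. In the untreated obese rats RK7_4, RK9_4 and RK16_4 there were 0.616, 0.569 and 0.631. These 3 rats, whose IC-A shares of all nuclei ran from 0.377% to 4.26%, were close on this scale. In the sGCact rats RK43_4, RK45_4 and RK46_4 the ratio was 0.603, 0.553 and 0.499, and in the sGCstim rats RK57_4, RK58_4 and RK61_4 it was 0.502, 0.486 and 0.538. The CV over the 12 rats was 12.1%, the smallest among the 24 clusters set against CNT/PC in this way, IC-A included. DCT/CNT, the distal convoluted and connecting tubule, came next with 14.7%, and IC-B had 32.5%.

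Each of the 3 sGCstim rats had fewer IC-A nuclei per CNT/PC nucleus than each untreated obese rat, and than each lean rat, which was not tested. Such a ratio does not tell fewer IC-A nuclei from more CNT/PC nuclei. In sGCstim against untreated obese rats, the log odds outside the proximal tubule changed by 0.03 for IC-A and by 0.24 for CNT/PC. The mean ratio was 0.509 ± 0.0267 (SD, n = 3) in sGCstim, 0.606 ± 0.0321 (SD, n = 3) in untreated obese, 0.552 ± 0.0522 (SD, n = 3) in sGCact and 0.642 ± 0.0827 (SD, n = 3) in lean rats. On the log2 scale with 0.5 nuclei added to each number, sGCstim minus untreated obese was -0.25, a ratio of 0.840 (exact two-sided permutation test, p = 0.1, adjusted over the 4 contrasts p = 0.4). The smallest p of this test is 0.1, so no contrast could pass. Of the 24 clusters, 4.17% did not overlap between sGCstim and untreated obese rats, and that was IC-A alone. This share is below the 0.1 that the exact test allows each cluster without any difference. A lower mean was not particular to IC-A. IC-B per CNT/PC nucleus was 0.427 ± 0.0395 (SD, n = 3) in sGCstim and 0.644 ± 0.244 (SD, n = 3) in untreated obese rats, with overlap. Over the alternatives the difference lay between -0.28 and -0.15, and on leaving out 1 rat at a time between -0.30 and -0.22. With nuclei of at most 1% mitochondrial UMIs it was -0.15, and 6 of 9 pairs of rats were lower in place of 9 of 9. Among the IC-A nuclei of RK16_4, 38.1% had more than 1% mitochondrial UMIs, and the part of this in the result was not tested. The sGCact rats were lower than untreated obese rats in 8 of 9 pairs (log2 difference -0.14, exact two-sided permutation test, p = 0.2), untreated obese rats lower than lean rats in 6 of 9 (-0.08, p = 0.6), and sGCact rats higher than sGCstim rats in 7 of 9 (0.11, p = 0.3).

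**Figure D3:**
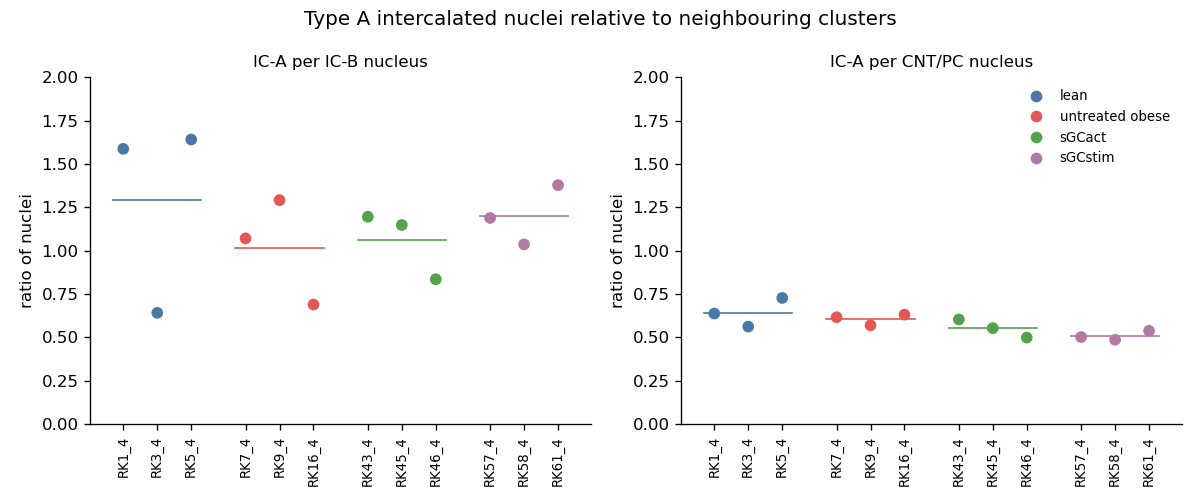
Number of IC-A nuclei divided by the number of IC-B nuclei (left) and of CNT/PC nuclei (right) in each of the 12 rats, with group means as lines. On the same axis the ratio to CNT/PC runs from 0.486 to 0.727 and the ratio to IC-B from 0.641 to 1.64.

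The balance between type A and type B cells was less constant. IC-A nuclei outnumbered IC-B nuclei in 9 of 12 rats. In the lean rats RK1_4, RK3_4 and RK5_4 there were 1.59, 0.641 and 1.64 IC-A nuclei per IC-B nucleus, so that the lean group held both the lowest and the highest ratio of all rats. The untreated obese rats RK7_4, RK9_4 and RK16_4 had 1.07, 1.29 and 0.689. Under sGCact the ratios were 1.20, 1.15 and 0.835 in RK43_4, RK45_4 and RK46_4, and under sGCstim 1.19, 1.04 and 1.38 in RK57_4, RK58_4 and RK61_4. The exact two-sided permutation tests gave p = 0.6 for untreated obese against lean rats, p = 0.8 for sGCact and p = 0.5 for sGCstim against untreated obese rats, and p = 0.5 between the drugs, with p = 0.8 for each after adjustment over the 4 contrasts. The corresponding log2 differences were -0.27, 0.09, 0.28 and -0.19, beside an SD of 0.768 among the lean rats on this scale. The values depended on the nuclei and rats included. Among nuclei with at least 1000 UMIs, sGCstim minus untreated obese was 0.80 and sGCact minus sGCstim -0.81, and with at most 1% mitochondrial UMIs these were 0.94 and -0.86 (lowest exact two-sided permutation p = 0.3). Untreated obese minus lean was -0.014 without RK16_4, -0.060 without RK1_4, -0.036 without RK5_4 and -0.71 without RK3_4. The IC-B nuclei of RK61_4 had a median of 853 UMIs and a median mitochondrial percentage of 4.45, unlike the IC-B nuclei of the other rats, of which the highest median percentage was 0.449.

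The small cluster IC-A/CD-Trans was uneven within every group. It held 6, 18 and 62 nuclei in the lean rats RK1_4, RK3_4 and RK5_4. In the untreated obese rats RK7_4, RK9_4 and RK16_4 it held 0, 2 and 70. Under sGCact it held 11, 10 and 73 nuclei in RK43_4, RK45_4 and RK46_4, and under sGCstim 27, 83 and 1 in RK57_4, RK58_4 and RK61_4. Set against 100 IC-A nuclei this ran from 0 in RK7_4, where 0 of 10556 nuclei leave room for at most 3, to 14.5 in RK58_4. Counting these nuclei as IC-A reversed no difference between groups in the shares or ratios given above.

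IC-A nuclei carried more UMIs than all kidney nuclei pooled. Their median was 1652 UMIs, from 432 to 5792, against 1277 in all nuclei. At least 1000 UMIs were held by 87.9% of them, against 61.5% of all nuclei. Among the 25 clusters the pooled IC-A median ranked 11, below IC-B with 1997, CNT/PC with 1700 and IC-A/CD-Trans with 2389. The median in lean rats RK1_4, RK3_4 and RK5_4 was 3117, 2071 and 1679 UMIs per nucleus. It was 1359, 2100 and 1349 in the untreated obese rats RK7_4, RK9_4 and RK16_4. It was 1671, 1655 and 1483 in the sGCact rats RK43_4, RK45_4 and RK46_4, and 1442, 1445 and 1662 in the sGCstim rats RK57_4, RK58_4 and RK61_4. RK1_4 stood above all other rats. The untreated obese rats overlapped with each of the other groups. Every lean median lay above every median of the treated rats, the closest being 1679 in RK5_4 and 1671 in RK43_4. Lean rats were not tested against treated rats.

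On the log2 scale, untreated obese rats differed from lean rats in the median of UMIs per nucleus by -0.50 (SE 0.31, adjusted p = 0.234, limma over the 23 clusters with nuclei in every rat), with a 95% interval of -1.21 to 0.22. It was -0.25 without RK1_4 and -0.71 without RK9_4 (limma, adjusted p = 0.710 and adjusted p = 0.0945). The median change of the 23 clusters was -0.49, and 17.4% of them passed the threshold. Against untreated obese rats, sGCact changed the IC-A median by 0.03 (adjusted p = 0.930) and sGCstim by -0.05 (adjusted p = 0.961), with 8.70% and 0% of the clusters called. The difference between the drugs was 0.08 (adjusted p = 0.905), with 4.35% called. Set against the other clusters of the same rat, the IC-A median was higher by 0.31 ± 0.17 (SD, n = 3) on the log2 scale in lean, 0.33 ± 0.20 (SD, n = 3) in untreated obese, 0.32 ± 0.35 (SD, n = 3) in sGCact and 0.10 ± 0.28 (SD, n = 3) in sGCstim rats. By rat this value ran from -0.12 to 0.64, so in some rats IC-A lay below the median of the other clusters. The lowest exact two-sided permutation p among the contrasts of this value was 0.3, for sGCstim against untreated obese rats.

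IC-B nuclei had a higher median of UMIs than IC-A nuclei in 11 of 12 rats, the exception being RK61_4 with 853 in IC-B against 1662 in IC-A. CNT/PC lay closer, with IC-A the higher in 6 of 12 rats. Across the 12 rats the log2 medians of IC-A and CNT/PC, which share library and depth, rose together (Pearson r = 0.87, permutation p = 0.00027, adjusted over 4 relations p = 0.00108; Spearman rho = 0.72, p = 0.0111, adjusted p = 0.0221). Without RK1_4 and RK7_4, the 2 rats farthest from the median, r was 0.73 (permutation p = 0.0184). The same relation to IC-B gave r = 0.65 (permutation p = 0.0364, adjusted p = 0.0485) and rho = 0.75 (p = 0.00737, adjusted p = 0.0221), and r = 0.88 (permutation p = 0.00133) without RK61_4 and RK1_4. The groups have too few rats for a value within each. The number of IC-A per CNT/PC nucleus was not clearly related to the number of IC-B per nucleus of the thick ascending limb cluster TAL (r = -0.43, permutation p = 0.165, adjusted p = 0.165; rho = -0.41, p = 0.185, adjusted p = 0.185; r = -0.56 without RK61_4 and RK1_4, p = 0.0944).

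**Figure D4:**
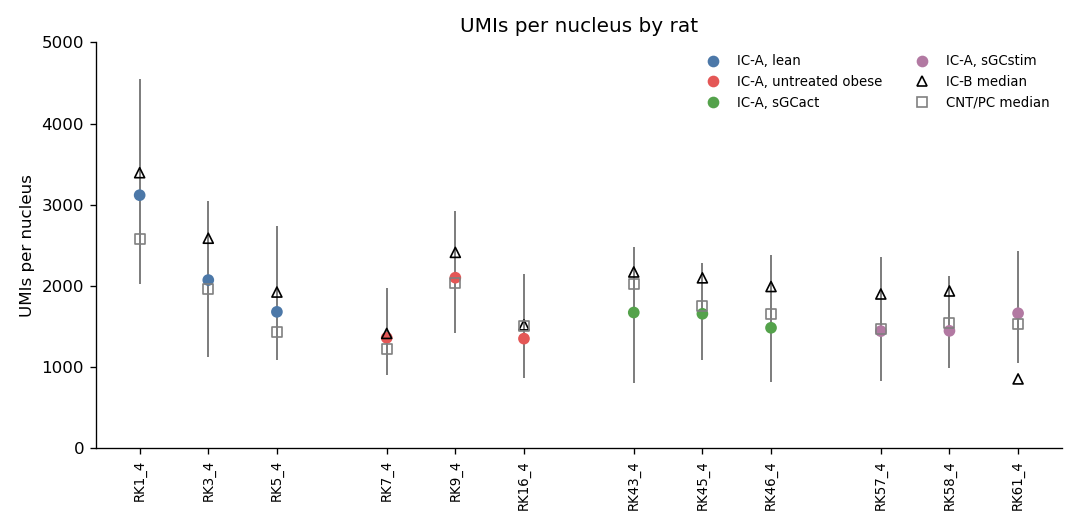
UMIs per nucleus in the 12 rats. Filled circles are IC-A medians with bars from the 10th to the 90th percentile of the IC-A nuclei of the rat, triangles the IC-B medians and squares the CNT/PC medians. The triangle lies above the circle in all rats except RK61_4, and RK1_4 has the highest IC-A median, 3117.

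The number of expressed genes followed the UMIs. The median over IC-A nuclei was 1106 genes, from 374 to 2360, and across the nuclei genes and UMIs correlated with r = 0.97. By rat the median was 1776, 1352 and 1106 genes in the lean rats RK1_4, RK3_4 and RK5_4 and 872, 1265 and 983 in the untreated obese rats RK7_4, RK9_4 and RK16_4. It was 1101, 1084 and 1066 under sGCact and 1011, 1027 and 1172 under sGCstim, in the rat order used above. Untreated obese against lean rats gave -0.43 on the log2 scale (SE 0.258, adjusted p = 0.184, limma), which was also the median change of the 23 clusters, of which 21.7% were called. This contrast passed when the lean rat RK5_4 was left out (-0.59, adjusted p = 0.0465, limma). The changes under sGCact and sGCstim against untreated obese rats were 0.08 (adjusted p = 0.926) and 0.06 (adjusted p = 0.956), with 4.35% and 0% of the clusters called, and the difference between the drugs was 0.02 (adjusted p = 0.972), with 4.35% called.

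Among IC-A nuclei of 1000 to 2000 UMIs the median number of genes was 1096 ± 94.5 (SD, n = 3) in lean, 998 ± 105 (SD, n = 3) in untreated obese, 1059 ± 8.28 (SD, n = 3) in sGCact and 1048 ± 52.9 (SD, n = 3) in sGCstim rats. This window held from 48 nuclei in RK1_4 to 432 in RK5_4, and within it the median UMIs still ran from 1372 to 1730 between rats. The obese minus lean difference was -97.8 genes (exact two-sided permutation test, p = 0.4). The other contrasts gave p of 0.4 or more.

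IC-A nuclei held few mitochondrial UMIs in most rats, including those whose libraries held many. This was not particular to them. Over pooled nuclei the median was 0.0689% in IC-A, 0.0676% in CNT/PC and 0.0455% in IC-B, and the CNT/PC median was at most 0.240% in any rat. The IC-A median lay below that of the library in 7 of 12 rats. No mitochondrial UMI was found in 36.5% of IC-A nuclei, and 10.1% had more than 1%. The median was 0.0570%, 0.101% and 0% in the lean rats RK1_4, RK3_4 and RK5_4. In the untreated obese rats RK7_4, RK9_4 and RK16_4 it was 0%, 0.112% and 0.751%. Under sGCact it was 0.139%, 0% and 0.0924% in RK43_4, RK45_4 and RK46_4, and under sGCstim 0%, 0.0676% and 0.107% in RK57_4, RK58_4 and RK61_4. RK16_4 stood apart, and it was not one of the 3 rats with the high percentages over all nuclei. In those 3 rats, RK7_4, RK9_4 and RK61_4, the IC-A median did not exceed 0.112% beside library medians of 2.13% to 3.74%.

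The change in untreated obese against lean rats was 0.84 on the scale of log2(percentage + 0.1), which understates changes of low percentages (SE 0.838, adjusted p = 0.840, limma), with a 95% interval of -1.09 to 2.77. Without RK16_4 it was -0.01. The changes in sGCact and sGCstim against untreated obese rats were -0.66 (adjusted p = 0.911) and -0.79 (adjusted p = 0.758), and 0.19 and 0.06 without RK16_4. The difference between the drugs was 0.14 (adjusted p = 0.933). Of the 23 clusters, limma called 0% in the first 3 contrasts, with 2 in each at an unadjusted p under 0.05, and 4.35% between the drugs. Across the 12 rats the medians of IC-A and CNT/PC gave r = 0.55 (permutation p = 0.00822, adjusted p = 0.0164) and rho = 0.63 (p = 0.033, adjusted p = 0.0441), and r over the 10 rats without RK16_4 and RK3_4 was 0.41 (permutation p = 0.238), so the relation was not shown without them.

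**Figure D5:**
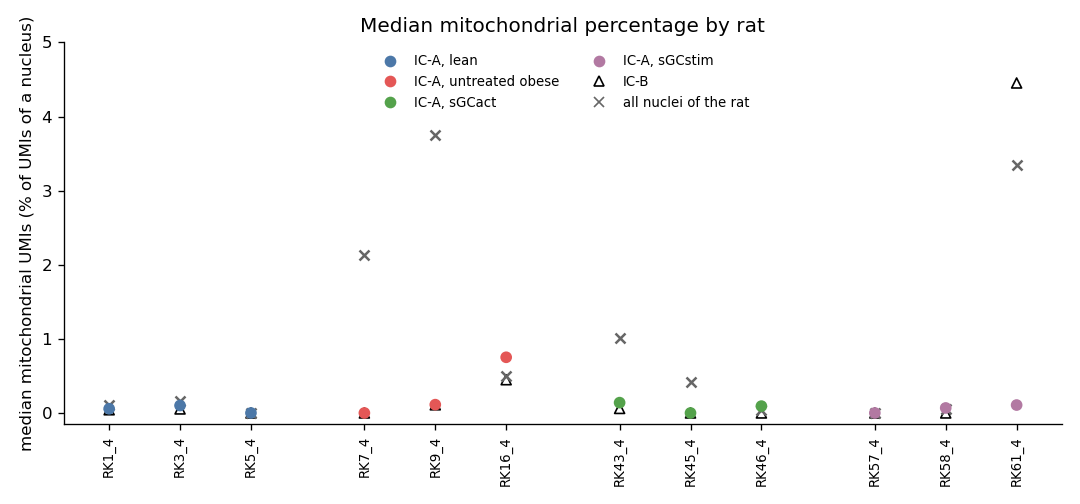
Median percentage of UMIs on mitochondrial genes in each of the 12 rats, for IC-A nuclei (circles), IC-B nuclei (triangles) and all nuclei of the rat (crosses). IC-A stays at or below 0.139% in all rats but RK16_4, with 0.751%, while the crosses reach 3.74% in RK9_4 and the IC-B triangle 4.45% in RK61_4.

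The cell-cycle scores of IC-A nuclei lay around 0. The authors' calls put 38.3% of them in G1, 33.8% in S and 27.9% in G2M, and all 2190 nuclei called G1 were exactly those with both scores at or below 0. One of the 2 scores lay within 0.01 of 0 in 31.2% of the nuclei, and only 10 nuclei had a score above 0.2, so the calls separate near-zero scores and are not read as cycling. IC-A nuclei were called G1 more often than IC-B nuclei in 12 of 12 rats, and more often than CNT/PC nuclei in 9 of 12. By rat the share called G1 was 37.2%, 38.8% and 41.7% in lean rats, 42.5%, 31.7% and 37.0% in untreated obese rats, 42.1%, 38.8% and 39.3% under sGCact and 33.9%, 34.0% and 37.1% under sGCstim, in the rat order used above. The sGCact rats lay above the sGCstim rats (exact two-sided permutation test, p = 0.1, adjusted over the 4 contrasts p = 0.4), and in 47.8% of the 23 clusters the shares of these 2 groups did not overlap either.

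The mean S phase score of IC-A nuclei was -0.00638 ± 0.000405 (SD, n = 3) in lean, -0.00735 ± 0.00182 (SD, n = 3) in untreated obese, -0.00428 ± 0.000430 (SD, n = 3) in sGCact and -0.00298 ± 0.0056 (SD, n = 3) in sGCstim rats. Every sGCact rat lay above every untreated obese rat, a difference of 0.00307 (adjusted p = 0.705, limma), and 21.7% of the clusters did not overlap in this contrast. The sGCstim rats differed from untreated obese rats by 0.00437 (adjusted p = 0.298, limma), and by 0.00748 without RK61_4 (adjusted p = 0.0122, limma), where the threshold was passed. With the median over nuclei in place of the mean, this difference was 0.0152 (adjusted p = 0.0799, limma) and that of untreated obese from lean rats was -0.00773 in place of -0.000966. No cluster was called for the S score in any of the 4 contrasts over all 12 rats (0%, limma), and 2 to 5 clusters a contrast had an unadjusted p under 0.05. The mean G2M score of lean rats was -0.0121 ± 0.00324 (SD, n = 3) and that of untreated obese rats -0.00709 ± 0.00539 (SD, n = 3), a difference of 0.00500 (adjusted p = 0.388, limma), while 26.1% of the clusters were called in this contrast and 0% in the other 3.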

How the data were processed

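The analysis started from a table, deposited by the authors, with 1 entry per kidney nucleus of 12 rats. The authors made droplet libraries with UMIs from frozen kidney, aligned reads with Cell Ranger (version 6 in the submitters' processing notes) to rn6 with a pre-mRNA annotation, corrected ambient RNA with SoupX, removed doublets with DoubletFinder, kept nuclei of 200 to 3000 genes with at most 15% mitochondrial UMIs, and clustered in Seurat after Harmony. The deposited UMIs per nucleus are counts without normalization, the deposited mitochondrial measure is in percent of UMIs, and the deposited S and G2M values are scores without a fixed range. Phase calls, cluster names, genes per nucleus and coordinates were used as deposited, and 0 columns of per-sample values were left unmapped. Rats were mapped to groups by the group names in the table, which carry no replicate number. The labels list each rat as a separate sample, and the rat was the replicate.

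Log odds or log2 medians per rat and cluster entered limma 3.58.1 (R 4.3.3) (4 groups, 8 residual degrees of freedom, Benjamini-Hochberg over clusters, threshold 0.05). The 95% intervals use these 8 degrees of freedom, without the further ones that the limma p-values use, so they are wider than those p-values imply. Ratios and single values were compared by exact two-sided permutation tests. Relations across rats used 100000 resamples. Clusters under 10 nuclei in a rat were left out of the depth relative to other clusters. Alternatives included edgeR 4.0.16 on numbers of nuclei. Other computations used scipy 1.17.1, numpy 2.4.6 and pandas 2.3.3, and scripts were tested on simulated data. Depth was 11898496 to 49272672 UMIs per rat. IC-A was described in full, with IC-B, IC-A/CD-Trans and CNT/PC as its nearest kin and other clusters only where they rank next to it or share a call. The members, the clusters compared and the tests were chosen with earlier results of these data known. Counts per gene were not analysed here.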

Additional observations from a re-analysis of the deposited data

How the results depend on the processing

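No paired analysis was possible because the rats have animal names in the table, from which their replicate numbers in the labels cannot be read. Of 272 comparisons under other settings, 12 turned direction. Of the 272, 208 were model fits, of which 0 passed the threshold of 0.05, and 64 were exact tests of 3 rats against 3, which cannot pass it. The causes of these turns were not tested. With nuclei of at least 1000 UMIs, sGCstim against untreated obese rats was -0.089 in log odds outside the proximal tubule, sGCact against untreated obese rats -0.0057 in log2 IC-A per IC-B, and sGCact against sGCstim rats -0.028 in log2 mitochondrial percentage and -0.0075 in log2 IC-A per CNT/PC. With at most 1% mitochondrial UMIs, the first of these was -0.024, the last -0.019, and relative UMIs in untreated obese against lean rats -0.10. With the mean in place of the median, relative UMIs were -0.067 in untreated obese against lean and 0.036 in sGCact against untreated obese rats, and log2 genes -0.00277 in sGCact against sGCstim rats. Under edgeR with TMM factors the share outside the proximal tubule in untreated obese against lean rats was -0.11, and in nuclei of 2000 to 3000 UMIs sGCact against sGCstim rats was -35.0 genes. The share of all nuclei moved most with the scale and the filters. The log odds of -0.86 in untreated obese against lean rats became -0.46 under edgeR, -0.11 with TMM factors or the centred log-ratio, -0.20 at 1000 UMIs and -0.19 at 1% mitochondrial UMIs. In the order edgeR, TMM, centred log-ratio, 1000 UMIs and 1%, the 1.04 of sGCact against untreated obese rats became 0.66, 0.78, 0.50, 0.67 and 0.55, and the 0.66 of sGCstim 0.41, 0.35, 0.17, 0.17 and 0.11. The setting without the IC-A nuclei lying away in the UMAP, chosen after seeing the data, turned no direction.

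With each rat left out in turn, 34 of 288 values turned direction and 2 passed the threshold. In untreated obese against lean rats the values ran from -0.71 to -0.25 in log2 UMIs, -0.59 to -0.25 in log2 genes, -0.0095 to 1.54 in log2 mitochondrial percentage, -0.17 to 0.016 in log2 IC-A per CNT/PC, -0.099 to 0.11 in relative UMIs and -0.21 to 0.022 in log odds of G1. In sGCact against untreated obese rats they ran from -0.078 to 0.24 in log2 UMIs, -0.041 to 0.23 in log2 genes, -1.35 to 0.19 in log2 mitochondrial percentage, -0.17 to 0.28 in log2 IC-A per IC-B and -0.16 to 0.18 in relative UMIs. In sGCstim against untreated obese rats they ran from 0.011 to 1.24 in the share of all nuclei, -0.14 to 0.31 in the share outside the proximal tubule, -0.16 to 0.16 in log2 UMIs, -0.063 to 0.21 in log2 genes, -1.49 to 0.055 in log2 mitochondrial percentage, 0.00214 to 0.00748 in S score, -0.00311 to 0.00158 in G2M score, -2.33 to 103 in genes at matched UMIs and -0.20 to 0.028 in log odds of G1. In sGCact against sGCstim rats they ran from -0.080 to 0.68 in the share of all nuclei, -0.018 to 0.089 in log2 genes, -0.16 to 0.50 in log2 mitochondrial percentage, -0.00441 to 0.000928 in S score, -0.00537 to 0.000500 in G2M score and -7.17 to 41.1 in genes at matched UMIs. With 3 rats a group, intervals of the share outside the proximal tubule are wide, so small differences are not resolved. In untreated obese against lean rats, for example, the interval in log odds ran from -0.50 to 0.72.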
